A study of Homo sapiens with 6 samples.

Results

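The genes described here are 10 that make, store or break down triglyceride: GPAM, GPAT3, GPAT4, AGPAT2, LPIN1, LPIN2, DGAT1, DGAT2, PLIN2 and PNPLA2. They were chosen by name, as the probe sets of the platform annotation that carry exactly 1 of these symbols, and are 10 of 19775 genes and 20 of 54613 probe sets. The list was drawn up with the differences of these arrays known, so its differences, counts and adjusted p-values below are a description and no independent evidence. The cells were HT29, an established human line from a colorectal adenocarcinoma, on 100 mm plates in F12 medium with 7% serum. A total of 300000 cells were plated. From the next day on, 3 cultures had 500 µg of PCE, a polyphenolic cocoa extract, for 24 h, and 3 control cultures had saline, although their titles call them untreated. Each culture was read on 1 Affymetrix oligonucleotide array, and the question was which transcripts differ after a day with the extract. HT29 is 1 line, and no volume for the dose and no separate culture days are given, so each p-value measures the spread among 6 cultures that may be technical.

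Triglyceride is built on a glycerol backbone by adding 1 fatty acid at a time. A glycerol-3-phosphate acyltransferase makes lysophosphatidic acid, an acylglycerol-phosphate acyltransferase makes phosphatidic acid, a lipin removes the phosphate, and a diacylglycerol acyltransferase adds the last acyl chain. The product collects in lipid droplets coated by perilipins, from which lipases release fatty acids. Absorptive cells of the intestine make triglyceride to package dietary fat, and colon cancer cells are known to hold lipid droplets.

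Deposited values are on a log2 scale, and every probe set is centred to a median of 0 over the 6 arrays. A value therefore says how far an array lies from the middle of the 6. Levels of different genes cannot be compared, and whether a gene, or a marker of colon epithelium, is above background cannot be read. The number of arrays limits the precision. The 18S ribosomal RNA control signal, on the same centred scale, was −0.51, 3.31 and 1.40 in cocoa arrays 1, 2 and 3, and −1.12, 0.51 and −0.53 in control arrays 1, 2 and 3, so that cocoa arrays 2 and 3 stood above all others. The 5′ minus 3′ signal of the actin and GAPDH controls, a sign of RNA integrity, was 0.032, −0.26 and −0.052 in the cocoa arrays, and 0.028, 0.033 and 0.0090 in the control arrays, with cocoa array 2 apart from the other 5. Their part in the results was not tested beyond the fits with each as a covariate that are given below.

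Among the triglyceride genes GPAT3 fell and LPIN2 rose, and the other 8 did not pass the test, which does not show that they were unchanged. The calls were 2 of these 10, against 13.5% of all 19775 genes at an adjusted p below 0.05 (limma with Benjamini-Hochberg adjustment over all genes). Of all genes 6.12% fell and 7.36% rose, against 1 of the 10 each way. All cocoa arrays lay on one side of all control arrays in 4 of the 10, GPAT3, LPIN1, LPIN2 and DGAT1, and in 32.5% of all genes. The median log2 difference of the 10, cocoa minus control, was 0.077, against −0.012 for all genes, and 1 of the 10 changed at least 1.5-fold, against 2.26% of all genes. Lower RNA per cell and fewer cells of a kind cannot be told apart in such bulk samples.

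**Figure D1:**
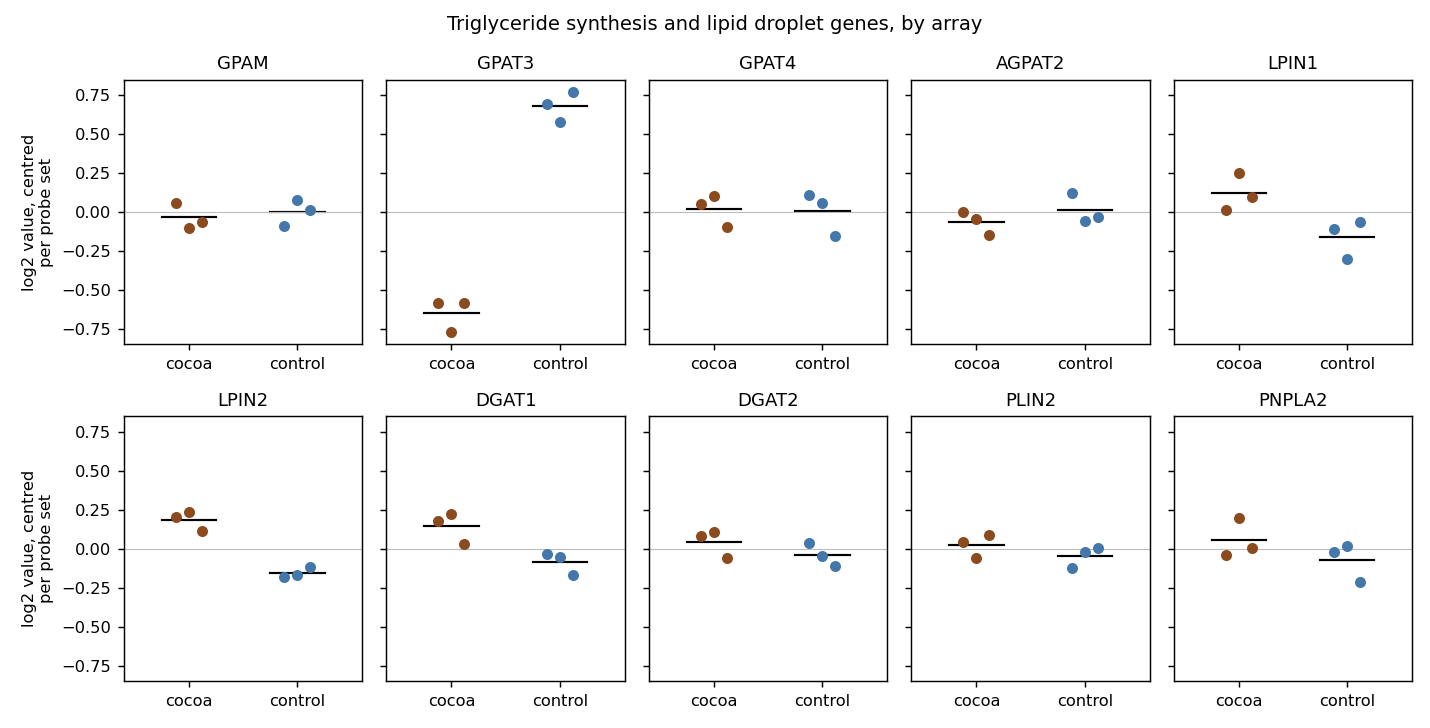
Centred log2 values of the 10 genes, each the mean of its probe sets, in the 3 cocoa arrays (brown, left) and the 3 control arrays (blue, right); the bars are group means. GPAT3 lies between −0.77 and −0.58 in cocoa arrays and between 0.58 and 0.77 in control arrays, while the groups of the other genes lie closer together.

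Glycerol-3-phosphate acyltransferases carry out the committed step. GPAT3, an enzyme of the endoplasmic reticulum, was lower with cocoa by a wide margin. It read −0.58, −0.77 and −0.58 in the 3 cocoa arrays, and 0.70, 0.58 and 0.77 in the 3 control arrays. Every cocoa array lay below every control array, and the gap between the groups was wider than the range within either. GPAT3 fell 2.51-fold (log2 difference −1.33, SE 0.080, 95% confidence interval −1.51 to −1.15, n = 3 arrays per group, limma adjusted p = 2.52e-05). By size this was the sixth decrease in the table and rank 59 among all 19775 genes. The value rests on 1 probe set, 224480_s_at, of the _s_at kind, which may match more than 1 transcript, and no second probe set checks it. Leaving out any 1 of the 6 arrays kept the call, with differences of −1.38 to −1.27. With the 18S signal as a covariate the difference was −1.23 (adjusted p = 0.000391).

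The region before the start of GPAT3 is shown because this gene carries the main difference among the 10, with LPIN2, the other changed gene, for comparison. Each sequence is the 250 bases before an annotated RefSeq start (GRCh38.p14), read 5′ to 3′ on the gene's strand. GPAT3 lies on the plus strand at chr4:83535857-83536106 and LPIN2 on the minus strand at chr18:3013145-3013394. Capitals mark the motifs found in a search of both strands.
GPAT3: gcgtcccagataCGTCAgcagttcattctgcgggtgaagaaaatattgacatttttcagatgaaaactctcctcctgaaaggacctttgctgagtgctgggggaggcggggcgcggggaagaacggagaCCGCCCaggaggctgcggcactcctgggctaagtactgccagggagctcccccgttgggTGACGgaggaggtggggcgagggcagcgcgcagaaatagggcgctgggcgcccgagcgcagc
LPIN2: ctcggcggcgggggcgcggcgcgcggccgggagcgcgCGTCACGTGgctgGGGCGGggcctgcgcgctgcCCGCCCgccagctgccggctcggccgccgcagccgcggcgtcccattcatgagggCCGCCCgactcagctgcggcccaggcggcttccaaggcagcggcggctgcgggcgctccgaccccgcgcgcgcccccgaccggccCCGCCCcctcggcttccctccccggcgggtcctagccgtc
The search covered the E-box CACGTG, the AP-1 site TGANTCA, the cyclic AMP element TGACGTCA, its half-site TGACG, the GC box GGGCGG and the interferon-stimulated element core. The half-site is contained in the full element. It and the GC box were added after a first search, so their counts below are a description and no independent evidence. In GPAT3 the half-site occurred at positions −238 and −62 and a GC box at −121, counted from the start site. In LPIN2 an E-box began at −210 and overlapped a half-site at −213, with GC boxes at −200, −180, −125 and −40. Among 35116 such windows of 27305 genes, 21.2% held the half-site, 42.6% a GC box, 6.34% the E-box, 6.57% the AP-1 site, 1.65% the full element and 3.02% the interferon core. GPAT3 is annotated with a further start 1 base on and LPIN2 with a further start whose window held none of these motifs. Of the 10 genes, 7 had windows in the table, 11 in all. Of these 11, 9 held a GC box, 4 the half-site and 2 the E-box. The windows of GPAT3 that lie 1 base apart are both counted. G and C made up 34.8% to 83.6% of the bases of the 11, against a median of 58.0% over all windows. GPAT4, DGAT1 and DGAT2 had no entry. The AP-1 site, the full cyclic AMP element and the interferon core occurred in none of the 11. A match is a description of letters and shows no binding.

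GPAM, the mitochondrial glycerol-3-phosphate acyltransferase, read 0.064, −0.097 and −0.058 in the cocoa arrays, and −0.088, 0.082 and 0.018 in the control arrays. The groups overlapped. Its log2 difference was −0.034 (SE 0.074, 95% confidence interval −0.20 to 0.13, limma adjusted p = 0.833). The 2 probe sets of GPAM differed in sign, with −0.11 for 225420_at (limma adjusted p = 0.655) and 0.041 for 225424_at (limma adjusted p = 0.84). The interval describes the measured signal and leaves room for small changes in either direction. Whether GPAM is above background cannot be read, so it sets no limit on the change of the transcript.

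GPAT4 is the closest relative of GPAT3 and also sits in the endoplasmic reticulum. The mean of its 3 probe sets had a log2 difference of 0.014 (SE 0.088, 95% confidence interval −0.18 to 0.21, limma adjusted p = 0.947), but this mean joins probe sets that went opposite ways. Probe set 224776_at read −0.095, −0.22 and −0.22 in the cocoa arrays, and 0.22, 0.19 and 0.095 in the control arrays. It was lower in every cocoa array than in any control array (log2 difference −0.35, SE 0.079, limma adjusted p over all probe sets 0.0338). Probe set 229577_at read 0.29, 0.36 and 0.044 in the cocoa arrays, and −0.15, −0.044 and −0.46 in the control arrays. Here every cocoa array was above every control array (log2 difference 0.45, SE 0.13, limma adjusted p = 0.0708). The third, 236743_at, had a difference of −0.059 with overlapping groups (SE 0.12, limma adjusted p = 0.836).

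The differences of the 3 GPAT4 probe sets spread over 0.79 on the log2 scale. Of 2780 genes with 3 probe sets, 81 (2.91%) had a spread at least as wide, and the median spread was 0.24. Over the 6 arrays the first 2 of these probe sets had a Pearson correlation of −0.67, a description that includes the group difference. When 1 array at a time was left out, the decrease at 224776_at passed in 1 of 6 fits (limma adjusted p 0.0337 to 0.135), and with the 18S covariate its difference was −0.30 and its adjusted p 0.178. Without cocoa array 1, where it was kept, the difference was −0.39. The transcripts that each probe set matches were not analysed here, so no direction is given for GPAT4.

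**Figure D2:**
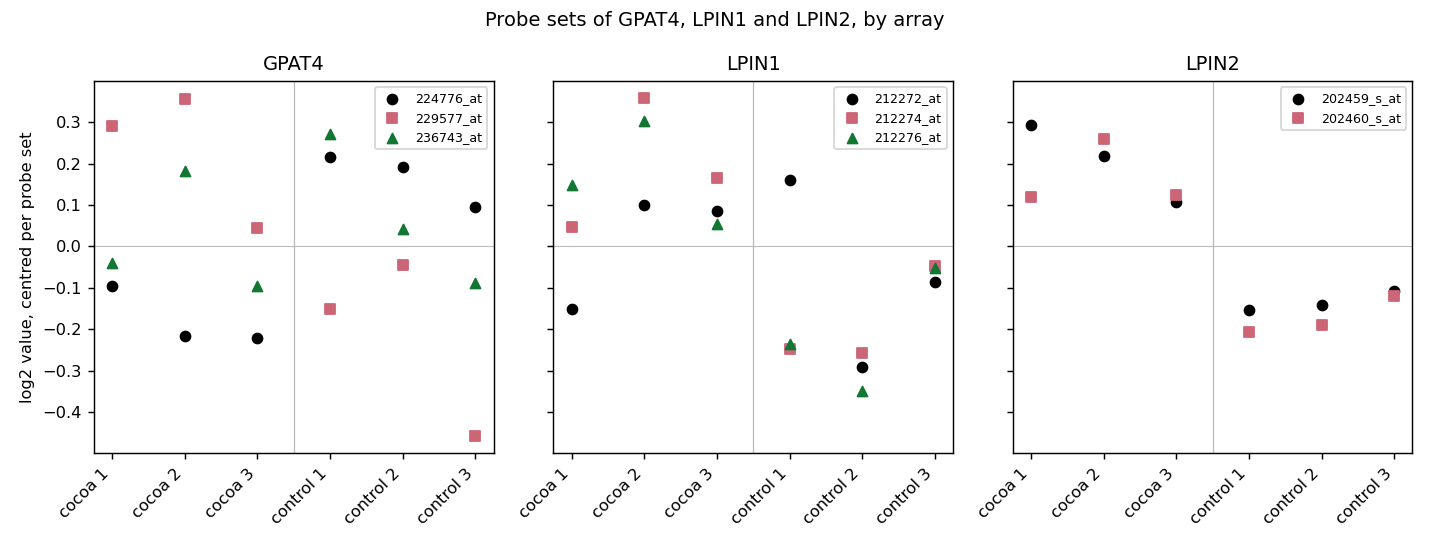
Centred log2 values of the probe sets of GPAT4, LPIN1 and LPIN2 in each of the 3 cocoa arrays (left) and the 3 control arrays (right), 1 symbol per probe set. In GPAT4, 224776_at (circles) lies lower and 229577_at (squares) higher in all cocoa arrays, while the 2 probe sets of LPIN2 lie together.

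AGPAT2, which adds the second acyl chain and whose loss causes a human lipodystrophy, did not pass the test. Cocoa arrays ranged from −0.14 to 0.0054 and control arrays from −0.057 to 0.12, which overlap. The log2 difference was −0.074 (SE 0.075, 95% confidence interval −0.24 to 0.095, limma adjusted p = 0.602). Its 2 probe sets, 210678_s_at and 32837_at, had differences of −0.11 and −0.036.

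Lipins remove the phosphate of phosphatidic acid to give diacylglycerol, and LPIN1 also acts as a coregulator of transcription. LPIN2 read 0.21, 0.24 and 0.12 in the cocoa arrays, and −0.18, −0.17 and −0.11 in the control arrays. All cocoa arrays lay above all control arrays. LPIN2 rose 1.27-fold (log2 difference 0.34, SE 0.065, 95% confidence interval 0.19 to 0.49, n = 3 arrays per group, limma adjusted p = 0.00885). Its 2 probe sets gave the same difference, 0.34 in each (SE 0.079 each, limma adjusted p over all probe sets 0.0353 for 202459_s_at and 0.0345 for 202460_s_at), and had a Pearson correlation of 0.92 over the 6 arrays. Both carry the suffix for several transcripts. Leaving out any 1 array kept the call for the gene (limma adjusted p 0.0154 to 0.0473), while each probe set alone passed in 1 of the 6 such fits: 202459_s_at without cocoa array 3 and 202460_s_at without cocoa array 1 (limma adjusted p in the other fits up to 0.132 and 0.134). With the 18S covariate the difference for the gene was 0.33 and the adjusted p 0.0579.

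LPIN1 had a difference of similar size that did not pass. It read 0.015, 0.25 and 0.10 in the cocoa arrays, and −0.11, −0.30 and −0.062 in the control arrays, so that the groups lay close together without overlapping. The log2 difference was 0.28 (SE 0.089, 95% confidence interval 0.081 to 0.48, limma adjusted p = 0.0692). Of its 3 probe sets, 212274_at and 212276_at had differences of 0.38 each (SE 0.10 each, adjusted p 0.0652 and 0.0613) and a Pearson correlation of 0.95 over the 6 arrays. The third, 212272_at, had a difference of 0.084 (SE 0.13, adjusted p = 0.775) with overlapping groups. With the median of the probe sets in place of the mean the gene's difference was 0.34 and passed (adjusted p = 0.0443), and without cocoa array 1 it was 0.34 as well (adjusted p = 0.0478). With the 18S covariate the difference was 0.22 (adjusted p = 0.286) and with the 5′ minus 3′ covariate 0.18 (adjusted p = 0.278).

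The last acyl chain is added by DGAT1 or DGAT2, enzymes of separate protein families that carry out the same reaction. DGAT1 read 0.18, 0.23 and 0.034 in the cocoa arrays, and −0.034, −0.051 and −0.17 in the control arrays. The groups did not overlap, and the nearest arrays lay close to each other. The log2 difference was 0.23 (SE 0.075, 95% confidence interval 0.062 to 0.40, limma adjusted p = 0.0757), from the single probe set 203669_s_at, and it did not pass in any of the 14 alternatives that measure it (adjusted p 0.0519 to 0.245). DGAT2 ranged from −0.059 to 0.11 in the cocoa arrays and from −0.11 to 0.037 in the control arrays, which overlap. Its log2 difference was 0.084 (SE 0.074, 95% confidence interval −0.082 to 0.25, limma adjusted p = 0.537). The 2 probe sets differed in sign, with 0.23 for 224327_s_at (adjusted p = 0.184) and −0.059 for 226064_s_at (adjusted p = 0.74).

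PLIN2, a perilipin that coats lipid droplets in most cell types and is stabilised by stored fat, was not detectably different. Its values ran from −0.058 to 0.093 in the cocoa arrays and from −0.12 to 0.0059 in the control arrays, which overlap. The log2 difference was 0.071 (SE 0.070, 95% confidence interval −0.087 to 0.23, limma adjusted p = 0.592). The probe set 209122_at gave −0.040 and the probe set 215895_x_at, whose suffix marks probes shared with other sequences, gave 0.18, neither past the threshold. PNPLA2, the lipase that starts triglyceride breakdown, ranged from −0.035 to 0.20 with cocoa and from −0.21 to 0.020 in controls, which overlap. Its log2 difference was 0.13 (SE 0.089, 95% confidence interval −0.071 to 0.33, limma adjusted p = 0.413), with 0.11 for 212705_x_at and 0.15 for 39854_r_at.

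**Figure D3:**
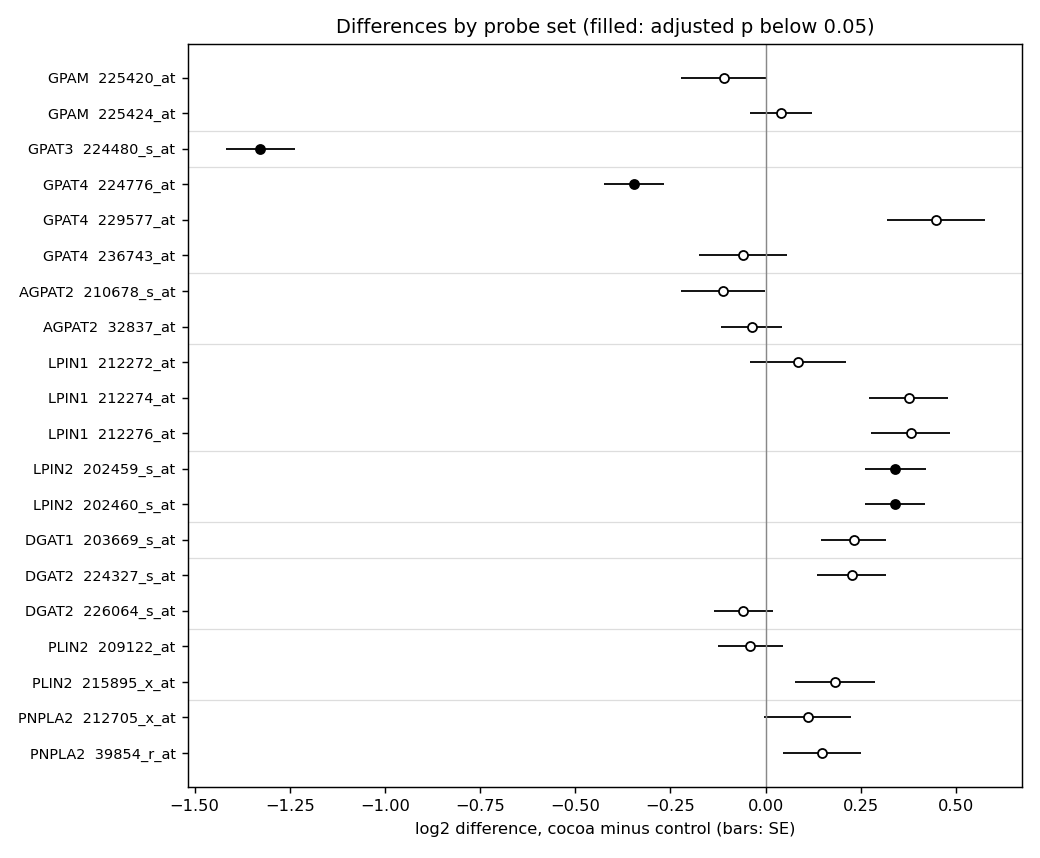
Log2 difference, cocoa minus control, with its SE for each of the 20 probe sets, ordered by step of the pathway; filled points have an adjusted p below 0.05 over all probe sets. The single probe set of GPAT3 stands apart at −1.33, and the 4 filled points belong to GPAT3, GPAT4 and LPIN2.

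On the level of probe sets, 4 of the 20 were called, against 7.98% of all 54613. Of the 20, 2 rose and 2 fell, against 4.68% and 3.3% of all, and 1 changed at least 1.5-fold, against 2.73% of all. The groups did not overlap in 9 of the 20, against 27.6% of all. The fallen ones were 224480_s_at of GPAT3 and 224776_at of GPAT4, and those that rose were the 2 of LPIN2. Only the GPAT3 probe set kept its call both with the replicate number as a block and with the 18S covariate; with the block 229577_at of GPAT4 passed in addition.

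GPAT3 was compared with the 107 other genes whose means differed at least 2-fold, 97 higher and 10 lower with cocoa. The closest patterns over the 6 arrays were those of ARL14, a small GTPase (Pearson r = 0.995), DKK1, a secreted Wnt inhibitor (0.993), TFF1, a trefoil peptide (0.986), REG4, a secreted lectin-like protein (0.986), and CAV1, the main protein of caveolae (0.986). Genes were ranked by signed correlation, so a gene that was higher with cocoa could hardly be picked. That all 5 are among the 10 lower genes therefore follows from the rule. These correlations over 6 arrays of 2 groups include the group difference. Within the 10 triglyceride genes, GPAT3 had a correlation of −0.97 with LPIN2, −0.89 with DGAT1 and −0.81 with LPIN1 over the same arrays, again with the group difference included.

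Other genes of the pathway were taken from 10 lists of textbook members, 161 genes in all, of which 147 were measured by probe sets with 1 symbol and the other 14 were not analysed here. Of the 147, 17 rose, 6 fell and 124 did not pass, a share of 15.6% called against 13.5% of all genes. Their median log2 difference was 0.014. Of the 22 changed genes named below, 8 kept the call with the 18S covariate (ACSL1, ACSL5, FABP5, GOT2, HSD17B11, PNPLA8, PTDSS1 and SOAT1), and the 14 others lost it with differences of 0.22 to 0.43 in size. A lost call need not mean a smaller difference. DGKZ had −0.33 (SE 0.081) with this covariate and −0.29 (SE 0.066) without it, while AUP1 had −0.26 (SE 0.091) with it and −0.31 (SE 0.075) without it. With the 5′ minus 3′ covariate 11 of the 22 lost the call, with differences of 0.22 to 0.34 in size. These were AUP1, CDIPT, CES2, DGKZ, GK5, INSIG2, MGLL, P4HB, PDK4, PLPP1 and TMT1B. Without _s_at and _x_at probe sets DGKZ, GK5 and TMT1A lost the call among the 16 genes still measured, and GK5, PDK4 and TMT1A did so with medians over probe sets. ACSL5, AUP1, CDIPT, FABP5, PNPLA8 and PTDSS1 have only _s_at or _x_at probe sets, so no other kind of probe set checks them. Among 17 other genes of acyl transfer and phosphatidic acid dephosphorylation 1 rose, 1 fell and 15 did not pass (median −0.063). AGPAT5, a mitochondrial relative of AGPAT2, fell by 0.28 on the log2 scale (SE 0.070, limma adjusted p = 0.0265, lost without cocoa array 3 or any control array, adjusted p up to 0.092). PLPP1, a phosphatase of lipid phosphates at the cell surface, rose by 0.27 (SE 0.065, limma adjusted p = 0.0246, lost without cocoa array 2 or any control array, up to 0.0889). AGPAT1 had a difference of 0.18, LPIN3 of −0.16 and MOGAT2, the monoacylglycerol acyltransferase of the gut, of 0.019, all with overlapping groups. AGPAT1 had 0.065 without cocoa array 2 and 0.093 without control array 3, and LPIN3 had −0.074 without cocoa array 3, −0.051 without control array 2, −0.26 without cocoa array 2 and −0.25 without control array 3.

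**Figure D4:**
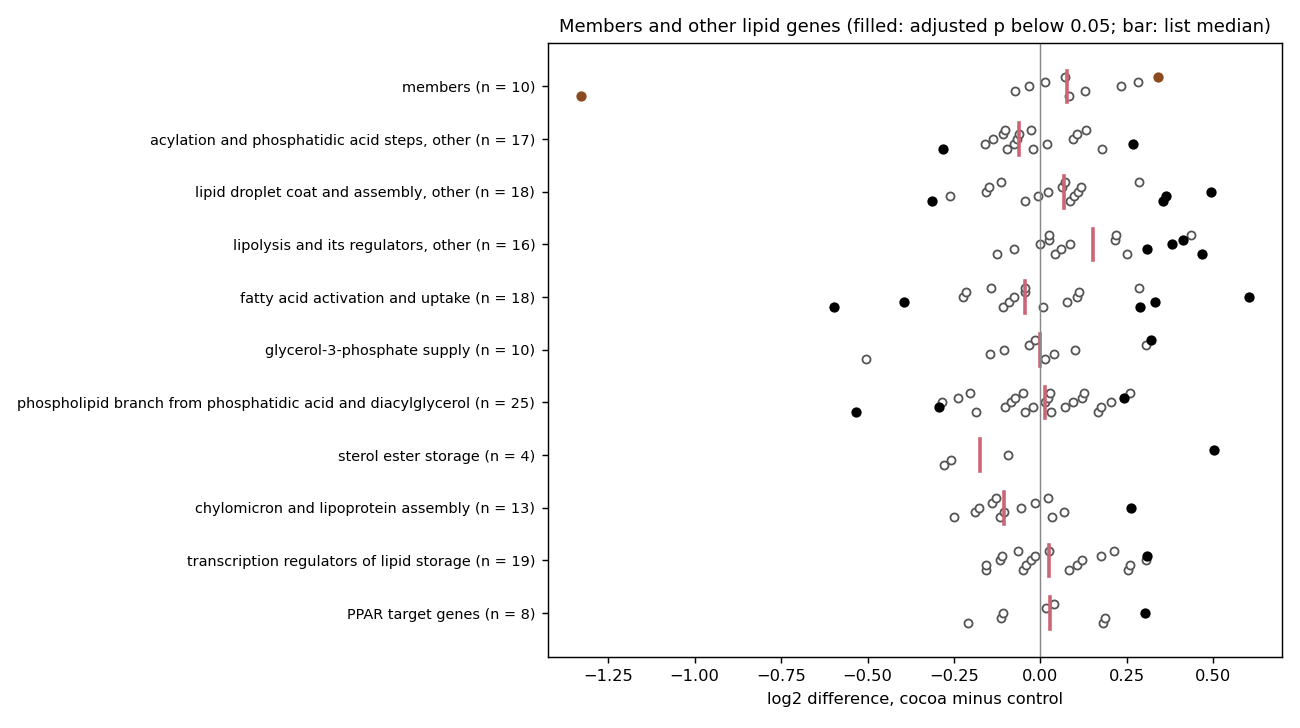
Log2 difference, cocoa minus control, of the 10 members (top) and of the measured genes of the 10 lists; each point is a gene, filled where the adjusted p is below 0.05, and the red bar is the median of the list. The medians of the 10 members and of the lists lie within 0.18 of 0, and GPAT3 lies farther from 0 than any other gene shown.

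The steps around triglyceride showed single changes in both directions. Of 18 genes of fatty acid activation and uptake 3 rose, 2 fell and 13 did not pass (median −0.044). ACSL1, which links fatty acids to coenzyme A, read 0.36, 0.49 and 0.28 in the cocoa arrays, and −0.23, −0.27 and −0.19 in the control arrays. It rose 1.52-fold (log2 difference 0.60, SE 0.073, limma adjusted p = 0.00104), and its relative ACSL5, abundant in intestine, rose 1.26-fold (0.33, SE 0.061, limma adjusted p = 0.00783). FABP5, a carrier of fatty acids, fell 1.51-fold (−0.60, SE 0.095, limma adjusted p = 0.00403), with −0.17, −0.47 and −0.50 in the cocoa arrays and 0.30, 0.17 and 0.19 in the control arrays. GOT2, the mitochondrial aspartate aminotransferase, fell by 0.39 (SE 0.068, limma adjusted p = 0.00574). ACSL1, ACSL5, FABP5 and GOT2 were called in each fit without 1 array. With the 18S covariate the difference of FABP5, which rests on 1 probe set, was −0.46 (limma adjusted p = 0.0278). FABP1, the liver-type carrier also found in enterocytes, did not pass (−0.11, SE 0.078, limma adjusted p = 0.432).

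Among 16 other genes of lipolysis 4 rose, none fell and 12 did not pass (median 0.15). LIPA, the acid lipase of lysosomes, rose by 0.47 (SE 0.086, limma adjusted p = 0.00772) and PNPLA8, a phospholipase related to PNPLA2, by 0.41 (SE 0.066, limma adjusted p = 0.00424). MGLL, which splits monoacylglycerol, rose by 0.38 (SE 0.072, limma adjusted p = 0.00868), and CES2, an intestinal carboxylesterase, by 0.31 (SE 0.068, limma adjusted p = 0.0174, lost without cocoa array 2, control array 1 or control array 3, up to 0.0666). With the 18S covariate PNPLA8 kept the call, at 0.41 (adjusted p = 0.0312). The calls of LIPA, at 0.43 (adjusted p = 0.0604), MGLL, at 0.36 (adjusted p = 0.0589), and CES2, at 0.27 (adjusted p = 0.109), were lost. The direct partners of PNPLA2 did not pass: its activator ABHD5 had −0.13 (SE 0.063, limma adjusted p = 0.242) and its inhibitor G0S2 had 0.44 (SE 0.22, limma adjusted p = 0.244). G0S2 read −0.031, 0.17 and 1.00 in the cocoa arrays, and 0.031, −0.17 and −0.031 in the control arrays, and without cocoa array 3, its highest, the difference was 0.13.

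Of 18 other genes of the droplet surface and of droplet assembly 3 rose, 1 fell and 14 did not pass (median 0.067). HSD17B11, a dehydrogenase found on droplets, rose by 0.49 (SE 0.081, limma adjusted p = 0.00451) and was called in all of the 15 alternatives. TMT1B and TMT1A, methyltransferases also found there, rose by 0.36 (SE 0.085, limma adjusted p = 0.0223, lost without cocoa array 2 or control array 2 or 3, up to 0.0716) and 0.35 (SE 0.066, limma adjusted p = 0.00818). TMT1A, a mean of 4 probe sets, had a difference of 0.0067 and an adjusted p of 0.982 once _s_at and _x_at probe sets were removed, and 0.12 and 0.253 with the median of its probe sets. AUP1, a droplet protein of ubiquitin transfer, fell by 0.31 (SE 0.075, limma adjusted p = 0.024, lost without cocoa array 2 or 3 or control array 1 or 2, up to 0.103). PLIN3, a perilipin of small droplets, had a difference of 0.086 (limma adjusted p = 0.488), and HILPDA, a hypoxia-induced inhibitor of lipolysis, of −0.16 (limma adjusted p = 0.171).

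In the branch that leads from the same precursors to phospholipids 1 of 25 genes rose, 2 fell and 22 did not pass (median 0.014). PTDSS1, a phosphatidylserine synthase, fell 1.45-fold (−0.53, SE 0.075, limma adjusted p = 0.0022), with −0.18, −0.29 and −0.22 in the cocoa arrays and 0.34, 0.39 and 0.18 in the control arrays. DGKZ, which turns diacylglycerol back into phosphatidic acid, fell by 0.29 (SE 0.066, limma adjusted p = 0.0189, lost without cocoa array 3 or control array 2, up to 0.0968). CDIPT, the phosphatidylinositol synthase, rose by 0.24 (SE 0.068, limma adjusted p = 0.0464) and was called in none of the fits without 1 array. Of 4 genes of sterol ester storage, SOAT1, which esterifies cholesterol for droplets, rose 1.42-fold (0.50, SE 0.065, limma adjusted p = 0.00143) and the other 3 did not pass. SOAT1 read 0.27, 0.26 and 0.38 in the cocoa arrays, and −0.17, −0.22 and −0.22 in the control arrays.

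In glycerol-3-phosphate supply 1 of 10 genes rose, GK5, a glycerol kinase-like gene (0.32, SE 0.090, limma adjusted p = 0.0466, called in 1 of the 6 fits without 1 array, that without control array 3). Without _s_at and _x_at probe sets the difference of GK5 was 0.15 (adjusted p = 0.416). In chylomicron and lipoprotein assembly 1 of 13 rose, P4HB, a subunit of the microsomal triglyceride transfer complex (0.26, SE 0.073, limma adjusted p = 0.045, called in 1 of the 6, that without cocoa array 3). Its partner MTTP (−0.14, SE 0.082) and APOB (0.021, SE 0.071), the structural protein of chylomicrons, did not pass. Of 19 transcription regulators 1 rose, INSIG2, which holds the sterol sensor in the endoplasmic reticulum (0.31, SE 0.070, limma adjusted p = 0.0194, lost without control array 1 or 2, up to 0.0962). SREBF1 (0.21, SE 0.10), PPARG (−0.12, SE 0.067) and PPARA (0.12, SE 0.068), well known regulators of lipid metabolism, had limma adjusted p-values of 0.214, 0.31 and 0.303. Of 8 target genes of the peroxisome proliferator receptors 1 rose, PDK4, a kinase that restrains pyruvate oxidation (0.30, SE 0.066, limma adjusted p = 0.0165, lost without cocoa array 3 or control array 2 or 3, up to 0.0791), while ANGPTL4, a lipase inhibitor, had a difference of 0.016 (SE 0.073).

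Genes that mark fat cells, another kind of cell rich in droplets, were also read. None of 7 adipocyte markers passed in limma, with 1 at an unadjusted p below 0.05 (median log2 difference −0.0013, range −0.26 to 0.26), and their mean per array lay between −0.097 and 0.023 with cocoa and between −0.073 and 0.058 in controls. Of 9 colon epithelium markers and 4 measured macrophage markers none passed in limma either, with medians of 0.047 and 0.013, and 2 and 0 were at an unadjusted p below 0.05. The 2 were KRT20 (0.23, limma adjusted p = 0.105) and CDX1 (0.20, limma adjusted p = 0.0843), both higher with cocoa, while LGALS4 was lower (−0.083, limma adjusted p = 0.595). Groups without overlap were seen in 3 of the 9 colon, 1 of the 7 adipocyte and 0 of the 4 macrophage markers, against 32.5% of all genes. The share of all genes at an unadjusted p below 0.05 was not taken.

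**Figure D5:**
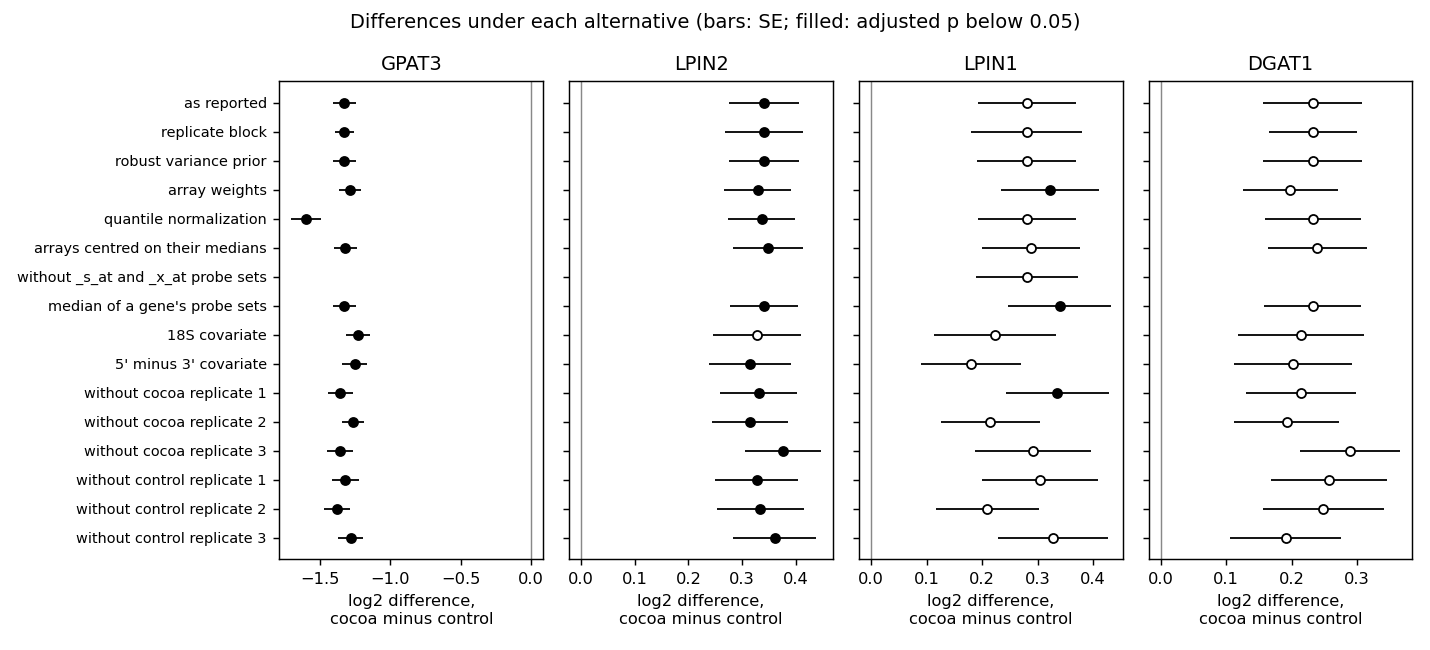
Log2 difference, cocoa minus control, with its SE for GPAT3, LPIN2, LPIN1 and DGAT1 as reported and under each alternative that measures the gene; filled points have an adjusted p below 0.05. GPAT3 stays between −1.60 and −1.23 and past the threshold throughout, LPIN2 loses the call with the 18S covariate, LPIN1 passes in 3 alternatives and DGAT1 in none.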

How the data were processed

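Total RNA of 3 cocoa and 3 control cultures was labelled with biotin and hybridised to 1 array each, per the labels' protocols. The authors made the expression values with RMA, according to the submitters' processing notes, while GeneSpring GX is named in the series text, with no version for either. The authors' deposited log2 values cover 54675 probe sets and are centred per probe set (largest absolute median over the arrays 5e-07), so that dim probe sets could not be filtered out. That the base is 2 follows from RMA.

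After removal of 62 control probe sets, 41091 carried 1 symbol, 1801 several and 11721 none; only the first were named. No probe set with several symbols included one of the 10 genes. Probe sets of 1 gene were averaged. Cocoa minus control was fitted over all 19775 genes, and separately over all probe sets, with limma 3.58.1 (lmFit, eBayes) in R 4.3.3. Adjusted p-values are Benjamini-Hochberg, called below 0.05; SEs and 95% confidence intervals are moderated. The step was tested on simulated data. The 10 genes and the lists were chosen with earlier results of these data known. Genes outside the 10 were named by a rule: up to 4 changed genes of each list by size, 18 well known ones (ACSL3 was not analysed here), and the 5 most like GPAT3. The motifs were chosen after the values were seen, and after a first search the half-site and the GC box were added and a DR1 element, found in no window of the 10 genes, was dropped. Sequences are from RefSeq, GRCh38.p14. Figures were drawn with matplotlib 3.10.9, and sequences searched with pandas 2.3.3, in Python 3.11.15.

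No 2 arrays were copies: their differences had SDs of 0.175 or more. Alternatives were a block for the number in the replicate label, a robust prior, array weights, quantile normalisation, median centring, removal of _s_at and _x_at probe sets, medians over probe sets in place of means, a covariate (18S signal, or the 5′ minus 3′ signal of the actin and GAPDH controls), a 1.5-fold minimum, and leaving out each array.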

Additional observations from a re-analysis of the deposited data

How the results depend on the processing

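Samples with the same replicate number did not deviate together (correlations of −0.12, −0.0089 and −0.0031 over genes). With the replicate block 2078 probe sets changed, against 4358 without it, 2 of the 10 triglyceride genes and 2 of their 20 probe sets were called, and 229577_at of GPAT4 passed (0.45). The labels do not say whether the shared number pairs the samples, and the correlations above, from 3 arrays per group, cannot settle it. Both fits are therefore given. Of the 22 changed lipid genes named above, AGPAT5, CDIPT, GK5, INSIG2, P4HB and PLPP1 lost the call with the block. With the 18S covariate 1103 genes, 1314 probe sets, 1 of the 10 genes, 1 of their 20 probe sets and 8 of the 147 other lipid genes changed. With the 5′ minus 3′ covariate these were 1411 genes, 1808 probe sets, 1 of the 20 probe sets and 13 of the 147. Without _s_at and _x_at probe sets 2499 probe sets changed, with 0 of the 6 triglyceride genes still measured (limma, 1 at an unadjusted p below 0.05; GPAT3, LPIN2, DGAT1 and DGAT2 are not measured), 1 of 11 of their probe sets and 14 of 121 other lipid genes; fewer genes were measured. With a 1.5-fold minimum 446 genes, 1493 probe sets, 1 of the 10 genes, 1 of the 20 probe sets and 2 of the 147 changed. In the fits without 1 array, 1315 to 2881 genes, 1416 to 4602 probe sets, 2 to 3 of the 10 genes, 1 to 4 of the 20 probe sets and 12 to 28 of the 147 changed. The lowest count of genes, of probe sets and of other lipid genes came without control array 2; without control array 1, 1623 genes, 2052 probe sets and 15 of the 147 changed. Of the 20 probe sets 1 was called without cocoa array 2 and without each of the control arrays, and 2 without cocoa array 3.

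The differences whose sign turned were small and past the threshold in no fit. With the 18S covariate they were GPAM (0.00077), GPAT4 (−0.0066), ANGPTL4 (−0.0076), MOGAT2 (−0.048), 225420_at of GPAM (0.0095), 225424_at of GPAM (−0.0079) and 32837_at of AGPAT2 (0.0029). With the 5′ minus 3′ covariate they were GPAM (0.022), GPAT4 (−0.016), ANGPTL4 (−0.014), MOGAT2 (−0.039), 225420_at (0.044), 225424_at (−0.00044) and 212272_at of LPIN1 (−0.00072). GPAT4 turned to −0.026 and 209122_at of PLIN2 to 0.0023 with array weights, and GPAT4 to −0.041 with the median of its probe sets. Without _s_at and _x_at probe sets PLIN2 read −0.040 and FABP1 0.068. Over the fits without 1 array GPAM ran from −0.081 to 0.0045, GPAT4 from −0.065 to 0.071, ANGPTL4 from −0.036 to 0.069, APOB from −0.029 to 0.067, MOGAT2 from −0.066 to 0.11, 225424_at from −0.0022 to 0.080, 236743_at of GPAT4 from −0.14 to 0.039, 32837_at from −0.078 to 0.010 and 212272_at from −0.025 to 0.20. The cause was not tested. GPAT3 ran from −1.60 to −1.23 over its 14 alternatives, the lowest with quantile normalisation. A dim probe set filter was not run, because the centred table holds no signal over background.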
